A study of Mus musculus with 6 samples.

Results

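Genes of the p53 pathway were read in mouse embryonic stem (ES) cells that carry a vector for FLAG-tagged mouse CTCFL. The group was named by 10 gene symbols: Trp53, which codes for p53 itself, and 9 genes known as its targets (Mdm2, Cdkn1a, Ccng1, Perp, Plk2, Bax, Bbc3, Trp53inp1 and Phlda3). A gene was taken as measured where a probe set of the array is annotated to it alone, and this held for 7 of the 10, among 19937 genes in all. Trp53 and Bax have no probe set annotated to them in the table used here. The only probe set annotated to Cdkn1a is annotated to a second gene as well, so no level of Cdkn1a is given. The measured genes are therefore targets of p53 without p53 itself and without p21, the product of Cdkn1a.

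The comparison was between 3 FLAG-CTCFL cultures and 3 control vector cultures. Both groups were cloned from 46C, a male ES line of 129P2/OlaHsd background with a Sox1-GFP knock-in. Both are described as stably transfected and grown with 10% serum and 1 µg/ml puromycin, so the selection drug was present in both groups alike. The FLAG-CTCFL cells carried the vector for FLAG-CTCFL, and the control cells a control vector. CTCFL (BORIS) is a paralogue of the DNA-binding protein CTCF that is normally made in male germ cells, and the series asks what it does at promoters held by CTCF and cohesin. The number of independently transfected clones per group is not in the labels. The p-values therefore rest on the spread among the cultures alone, and a difference between clones cannot be told apart from an effect of the vector.

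p53 is a transcription factor that is held at a low level by Mdm2, a ubiquitin ligase that p53 itself induces, which closes a feedback loop. When DNA is damaged or ribosomes or nucleotides run short, p53 is stabilised and raises genes of cell-cycle arrest, survival control and apoptosis. Mouse ES cells hold p53 protein at a high level compared with differentiated cells and go through a short G1 phase, and activated p53 is known to lower genes of pluripotency in them. Transcript levels of p53 targets report only part of this, because p53 is controlled mainly through its protein.

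RNA was hybridised to 1-colour Affymetrix Mouse Gene 1.0 ST arrays, and each value is a log2 signal as deposited. Differences are FLAG-CTCFL minus control vector on the log2 scale with the moderated standard error (SE) of limma. A gene was called where limma's p adjusted by Benjamini-Hochberg over all 19937 genes was under 0.05. Ctcfl was read first as a check of the labels, with 11.33, 11.22 and 11.24 in the FLAG-CTCFL arrays, against 7.70, 7.85 and 7.89 in the control vector arrays. The array medians lay between 7.92 and 7.99, and FLAG-CTCFL replicate 2 had the narrowest spread of signals (SD 1.41, against 1.44 to 1.47 in the others). A level of silent genes was taken from 1194 genes of olfactory or vomeronasal receptors, whose 95th percentile was 7.63, and 10 of 10 ES cell markers lay above it. Of these markers 1 was higher and 6 lower in FLAG-CTCFL cells, and the log2 of their summed signal was 15.65 to 15.76 in FLAG-CTCFL arrays and 16.01 to 16.02 in control vector arrays. For fibroblast markers the log2 of the summed signal was 11.54 to 11.63 against 11.74 to 11.79 (7 of 10 above the receptor level, 1 higher, 2 lower). For trophoblast markers it was 10.54 to 10.61 against 10.42 to 10.49 (4 of 7, 2 higher). For extra-embryonic endoderm markers it was 12.18 to 12.45 against 12.48 to 12.52 (5 of 8, 2 higher, 1 lower). For neural progenitor markers it was 11.05 to 11.10 against 10.90 to 11.00 (5 of 7, 2 higher). Bright genes weigh most in these sums, and the median log2 fold changes were -0.29 for ES cell, 0.07 for fibroblast, 0.04 for trophoblast, 0.03 for extra-embryonic endoderm and 0.0072 for neural progenitor markers, so that for fibroblast and endoderm markers the sum and the median differed in sign. The part of these shifts in the results on p53 targets was not tested. In bulk RNA, fewer cells that express a gene and less of its RNA per cell cannot be told apart.

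Promoter sequences came from RefSeq (GRCm38.p6), as windows of 250 bases before to 50 bases after a start, and were found for 8 of the 10 genes and for 5 of the 7 measured. Perp and Trp53inp1 had no entry. Of the 5 measured genes with a window, 4 are shown, and Plk2 is not. Ccng1 and Bbc3 are shown for the stretches closest to a p53 site, Mdm2 for its half-site and Phlda3 for its core letters of the CTCF motif. The 250 bases before the start are written 5′ to 3′ on the gene's strand. In Ccng1 (chr11:40755287-40755536, minus strand) and Bbc3 (chr7:16309333-16309582, plus strand, the first of its 3 starts) the capitals mark the 20 bases closest to the p53 consensus of 2 half-sites side by side. In Mdm2 (chr10:117710759-117711008, minus strand) they mark its single exact p53 half-site of 10 bases. In Phlda3 (chr1:135765835-135766084, plus strand) they mark CCCTC or its reverse complement GAGGG, the core letters of the motif of CTCF, whose zinc fingers CTCFL shares.
Ccng1: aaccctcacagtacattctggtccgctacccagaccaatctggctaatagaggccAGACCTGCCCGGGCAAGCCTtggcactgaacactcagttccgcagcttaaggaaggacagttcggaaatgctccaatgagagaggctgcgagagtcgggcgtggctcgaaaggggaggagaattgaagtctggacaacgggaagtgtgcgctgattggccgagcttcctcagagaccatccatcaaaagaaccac
Bbc3: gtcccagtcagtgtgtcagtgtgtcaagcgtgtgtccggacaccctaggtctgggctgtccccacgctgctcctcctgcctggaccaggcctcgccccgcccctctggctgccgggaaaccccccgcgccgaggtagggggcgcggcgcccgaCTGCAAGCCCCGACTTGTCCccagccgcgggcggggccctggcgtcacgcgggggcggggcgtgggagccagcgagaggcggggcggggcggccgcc
Mdm2: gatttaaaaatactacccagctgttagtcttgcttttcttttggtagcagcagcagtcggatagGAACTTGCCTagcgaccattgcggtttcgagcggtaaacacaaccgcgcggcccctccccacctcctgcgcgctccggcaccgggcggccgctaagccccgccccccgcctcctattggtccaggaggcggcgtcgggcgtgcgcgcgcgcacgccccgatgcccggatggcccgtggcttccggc
Phlda3: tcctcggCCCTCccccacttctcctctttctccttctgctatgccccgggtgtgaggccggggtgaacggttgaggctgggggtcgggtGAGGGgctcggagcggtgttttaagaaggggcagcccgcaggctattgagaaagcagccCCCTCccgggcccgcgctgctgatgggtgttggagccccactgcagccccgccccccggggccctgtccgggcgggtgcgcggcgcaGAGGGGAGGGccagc
The Ccng1 stretch differs from the 20-base consensus at 1 base, and 0.0883% of all 32851 promoter windows hold a stretch as close. The Bbc3 stretch differs at 3 bases, which 6.29% of all windows reach. An exact half-site, as in the windows of Mdm2 and Ccng1, is found in 8.36% of all windows. No exact half-site is in the windows of Plk2 or Phlda3, or in any of the 3 windows of Bbc3. CCCTC or GAGGG occurs at least 1 time in 66% of all windows and so is common. It was found 5 times in the window of Phlda3, 1 time each in those of Ccng1, Mdm2 and the first start of Bbc3. The window of Plk2, the member with the largest rise, did not hold it. How many of all windows hold it 5 times was not counted, and a link of these letters to any change was not tested. CATG, a frequent core of strong p53 half-sites, is in 61.1% of all windows and, of the 5 measured genes with a window, in that of Phlda3 alone. CpG dinucleotides numbered 35 in the Mdm2 window, 34 in the first Bbc3 window, 31 in Plk2, 26 in Phlda3 and 14 in Ccng1, against a median of 7 over all windows. The window of the upstream start of Cdkn1a holds 2 half-sites and the stretch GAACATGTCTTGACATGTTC, which differs from the consensus at 1 base, but the gene has no value here. These matches are letters in a window, and known p53 sites of Mdm2 lie outside it, in the first intron.

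Of the 7 measured p53 targets, 4 rose in FLAG-CTCFL cells (Plk2, Phlda3, Mdm2 and Ccng1), 1 fell (Perp) and 2 did not pass the test (Bbc3 and Trp53inp1). Over all genes 12.5% rose and 18.4% fell, 30.9% in either direction. The rises were small, between 0.13 and 0.36 on the log2 scale, while the fall of Perp was close to 2-fold in size, at 1.91-fold. The median log2 fold change of the 7 was 0.13, beside 0.0037 over all genes. The 3 arrays of one group lay wholly above those of the other for 6 of the 7 genes, which is so for 41.3% of all genes. The genes were chosen with earlier results of these data known, so these counts describe the list and were not tested as a set. All 7 lay above the receptor level, against 14194 of all 19937 genes. The shares of all genes given here and below thus include genes at the level of silent genes. The share called among genes above that level is not given.

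**Figure D1:**
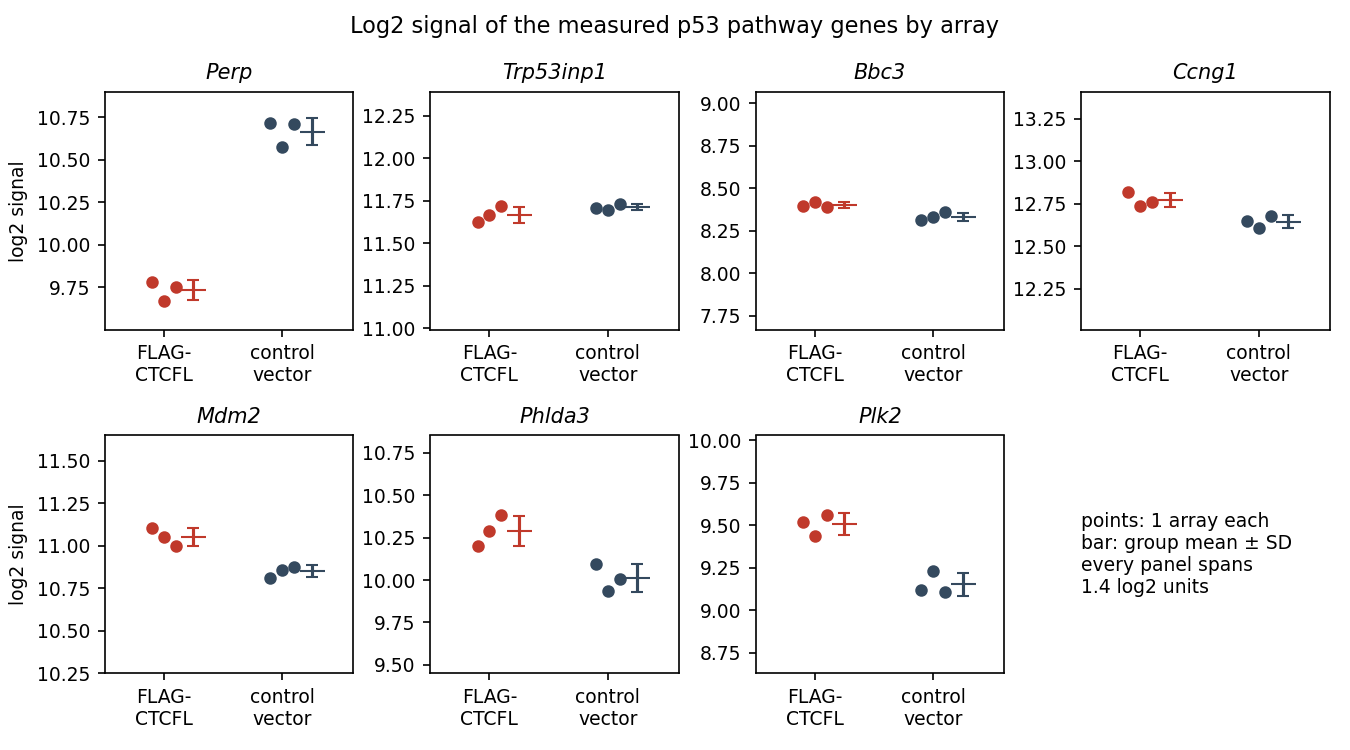
Log2 signal (vertical axes, each spanning 1.4 log2 units) of the 7 measured p53 targets in the 3 FLAG-CTCFL arrays (red, left) and the 3 control vector arrays (dark, right), with points for arrays and bars for group mean ± SD. Perp stands near 9.73 in FLAG-CTCFL arrays and 10.67 in control vector arrays, while the groups overlap for Trp53inp1 alone.

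Mdm2, the ubiquitin ligase that limits p53, had log2 signals of 11.10, 11.05 and 11.00 in FLAG-CTCFL arrays, against 10.81, 10.86 and 10.88 in control vector arrays. Every FLAG-CTCFL array stood above every control vector array. The rise was 0.20 ± 0.05 (SE, n = 3 arrays each), or 1.15-fold (limma adjusted p = 0.00359). Ccng1 codes for cyclin G1, which recruits the phosphatase PP2A to Mdm2 and belongs to the same feedback arm. Its signals were 12.82, 12.74 and 12.76 in FLAG-CTCFL arrays, against 12.65, 12.61 and 12.68 in control vector arrays, a rise of 0.13 ± 0.04 (1.09-fold; adjusted p = 0.0415). The arrays did not overlap, but the gap between the lowest FLAG-CTCFL and the highest control vector array was narrower than the range within either group. This call was lost under 10 of 17 alternative settings. It was lost without FLAG-CTCFL replicate 1 (adjusted p = 0.103) or 3 (0.0919), without control vector replicate 1 (0.103), 2 (0.173) or 3 (0.0603), and after subtraction of array medians (a difference of 0.10, adjusted p = 0.150).

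Plk2 codes for a polo-like kinase that acts at centrioles and in the checkpoint after spindle damage. Its log2 signals were 9.52, 9.43 and 9.56 in FLAG-CTCFL arrays, against 9.12, 9.23 and 9.11 in control vector arrays. The groups were well apart, and the rise of 0.36 ± 0.05 (1.28-fold, limma adjusted p = 0.000104) was the largest among the measured members. Phlda3 codes for a small pleckstrin homology domain protein that competes with the kinase Akt for membrane lipids and so limits survival signalling. It had 10.20, 10.29 and 10.38 in FLAG-CTCFL arrays, against 10.10, 9.93 and 10.01 in control vector arrays, a rise of 0.28 ± 0.06 (1.21-fold; adjusted p = 0.00168). The spread within both groups was wider than for Mdm2, and the call was lost where no variance was shared between genes (adjusted p = 0.0685).

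Among the measured members Perp moved most and was the only one that fell. It codes for a membrane protein with 4 passes of the PMP22 family, known in p53-dependent apoptosis and, in epithelia, as a part of desmosomes under control of the p53 relative p63. Its log2 signals were 9.78, 9.67 and 9.75 in FLAG-CTCFL arrays, against 10.72, 10.57 and 10.71 in control vector arrays. All 3 FLAG-CTCFL arrays lay far below the control vector arrays, with means of 9.73 ± 0.06 and 10.67 ± 0.08 (SD, n = 3 each). The fall was -0.93 ± 0.05 on the log2 scale (SE; 1.91-fold lower; limma adjusted p = 2.2e-08). It ranked 154 among the 9646 genes with a negative difference, whereas Plk2 ranked 514 among the 10291 genes with a positive one. Under the alternative settings the difference of Perp stayed between -0.98 and -0.86.

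Bbc3 codes for PUMA, a BH3-only protein that starts mitochondrial apoptosis. It had 8.39, 8.42 and 8.39 in FLAG-CTCFL arrays, against 8.31, 8.33 and 8.36 in control vector arrays. These arrays did not overlap either, yet the difference of 0.07 ± 0.04 (limma adjusted p = 0.268; 95% interval -0.02 to 0.16) did not pass. Trp53inp1 codes for a stress-induced protein that promotes p53 phosphorylation and autophagy. It had 11.62, 11.66 and 11.72 in FLAG-CTCFL arrays, against 11.71, 11.70 and 11.73 in control vector arrays. The groups overlapped, and the difference was -0.04 ± 0.04 (adjusted p = 0.519; 95% interval -0.14 to 0.05). Its sign turned after quantile normalization (0.04, adjusted p = 0.597).

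**Figure D2:**
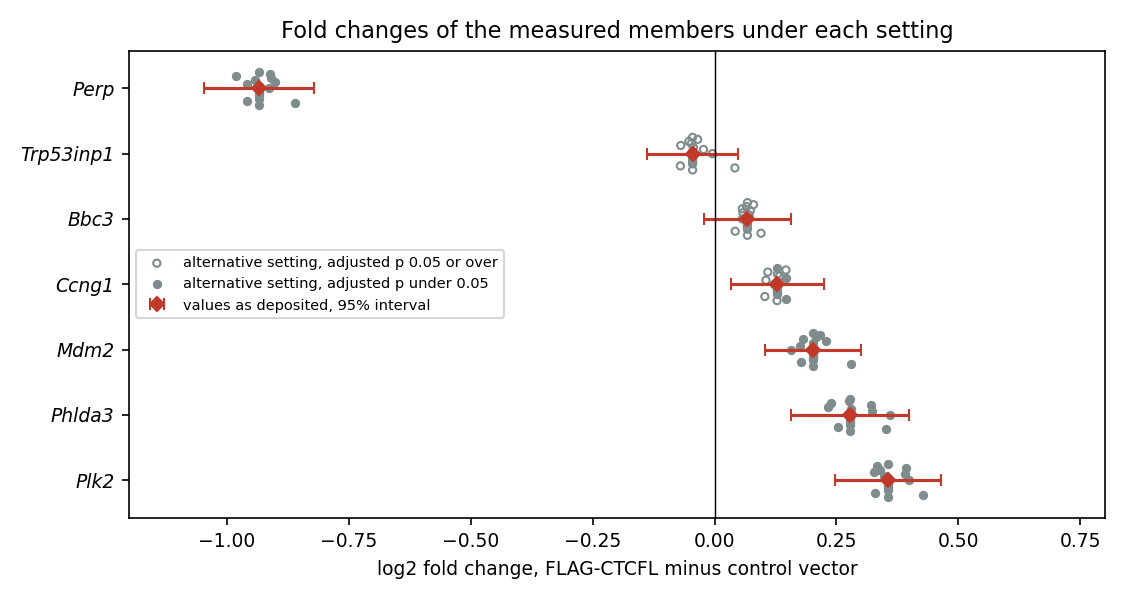
Log2 fold change (horizontal axis, FLAG-CTCFL minus control vector) of each measured p53 target with the deposited values (red diamonds, bars for the 95% interval) and under the 17 alternative settings (grey points, filled where adjusted p was under 0.05). Perp stays between -0.98 and -0.86, Ccng1 between 0.10 and 0.15 with open points for 10 settings, and Trp53inp1 crosses 0 once.

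The measured targets lie on chromosomes 1 (Phlda3), 4 (Trp53inp1), 7 (Bbc3), 10 (Mdm2 and Perp), 11 (Ccng1) and 13 (Plk2). None is on chromosomes 6, 14 or X, which were set apart because earlier results of these data showed stretches of lower expression on them. The 5 measured genes on either side of each target, in the order of the GRCm38.p6 gene table, showed mixed differences. The counts below stand beside 12.5% of all genes that rose and 18.4% that fell. Among the 10 neighbours of Perp 1 rose (Hebp2, 0.49), 1 fell (Ifngr1, -0.31) and the median was 0.04. None of the 10 neighbours of Mdm2 passed limma's test, and their differences lay between -0.14 and 0.11. At an unadjusted limma p under 0.05 were 2 of 10 neighbours for Mdm2, 3 for Plk2 and 4 for Phlda3. These counts were 5 each for Perp, Ccng1 and Trp53inp1 and 6 for Bbc3, and the share of all genes at that level is not given. Of the 10 neighbours of Ccng1 5 fell, and the median was -0.12, while Ccng1 itself rose. Beside Plk2 2 of 10 fell, among them Pde4d, a cAMP phosphodiesterase (-0.67), and beside Phlda3 2 of 10 fell, Nav1 (-0.53) and Lad1 (-0.58). Beside Trp53inp1, which did not pass, Esrp1, an epithelial splicing regulator, fell by 1.15, and 2 other neighbours fell and 1 rose. Beside Bbc3 3 of 10 rose and 1 fell. These neighbours were named after their values were seen.

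**Figure D3:**
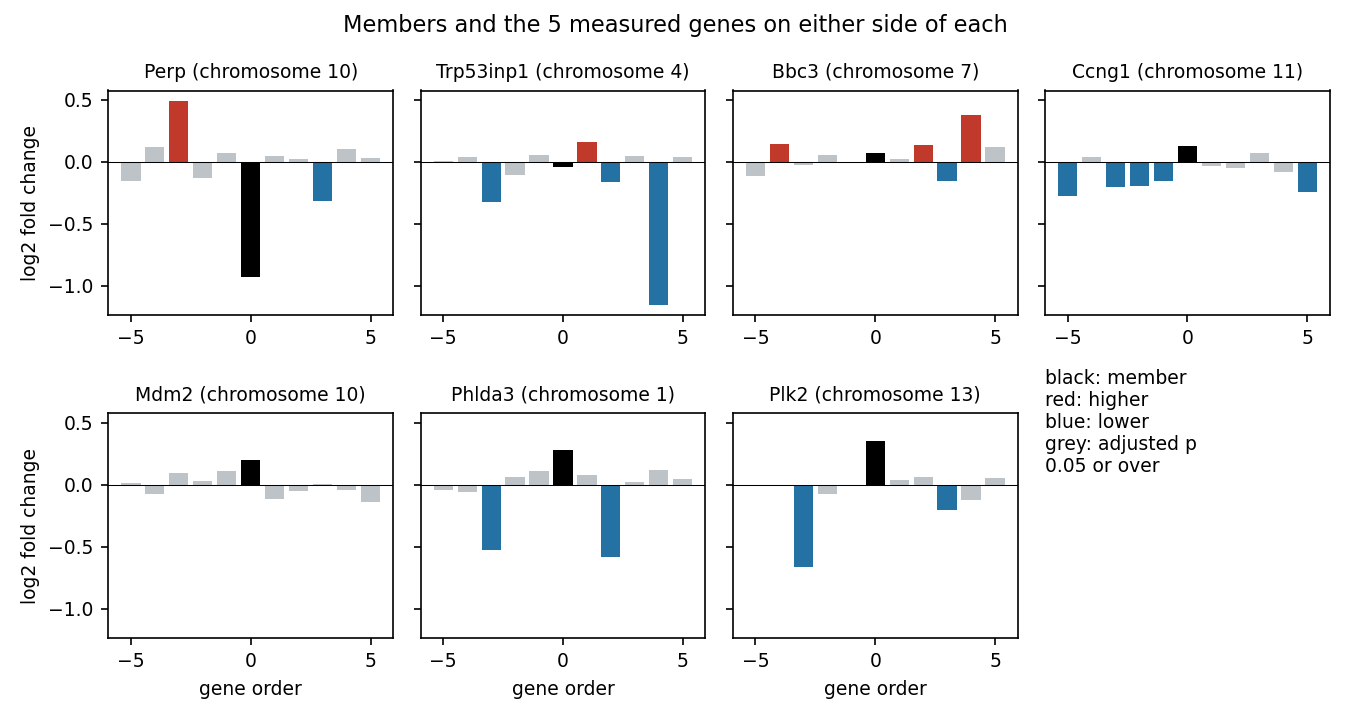
Log2 fold change (vertical axis, FLAG-CTCFL minus control vector) of each measured p53 target (black, position 0) and of the 5 measured genes before and after it on the chromosome (horizontal axis, gene order), red where higher, blue where lower and grey where adjusted p was 0.05 or over. The fall of Perp (-0.93) stands among neighbours with a median of 0.04. The rise of Ccng1 (0.13) stands beside 10 neighbours of which 5 fell, where 18.4% of all genes fell.

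Other genes known as p53 targets moved in both directions. Of 55 listed, 54 were measured, of which 8 rose and 18 fell, 48.1% called in either direction beside 30.9% of all genes, with a median of -0.03. The receptor level was passed by 53 of the 54, but by 14194 of all 19937 genes. These shares therefore do not compare genes of like signal. The balance of directions depended on scaling: after quantile normalization 15 rose and 15 fell. Of the 18 that fell 6 lie on chromosomes 6, 14 or X, and without the genes of these chromosomes 8 rose and 12 fell. The largest rises were those of Epha2, an ephrin receptor (0.65 ± 0.05, adjusted p = 6.42e-07), the polo-like kinase gene Plk3 (0.42), Aen, an apoptosis-enhancing nuclease (0.32), and Sesn2, a stress-induced inhibitor of mTORC1 (0.27, with adjusted p = 0.0747 where no variance was shared between genes). Epha2 had 11.08, 10.93 and 11.11 in FLAG-CTCFL arrays, against 10.44, 10.38 and 10.37 in control vector arrays, so the groups were wide apart. The largest falls were those of Pltp, a phospholipid transfer protein (-1.33 ± 0.05, adjusted p = 9.96e-10), Ephx1, an epoxide hydrolase (-1.16), Eda2r, a receptor of the TNF family on chromosome X (-0.78), and Tnfrsf10b, the TRAIL receptor gene on chromosome 14 (-0.77). Pltp had 9.42, 9.31 and 9.25 in FLAG-CTCFL arrays, against 10.61, 10.70 and 10.64 in control vector arrays.

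Of other targets often read as signs of p53 activity and fixed by name, 6 fell, 4 did not pass and Sesn2, given above, rose. Among all genes 18.4% fell and 12.5% rose. Pmaip1, which codes for the BH3-only protein NOXA, fell by 0.26 (adjusted p = 0.000838), the antiproliferative gene Btg2 by 0.31, Tigar, a fructose bisphosphatase on chromosome 6, by 0.30, Gadd45a, a growth arrest gene on chromosome 6, by 0.25, and Sesn1, a sestrin like Sesn2, by 0.20. Rrm2b, the p53-induced subunit of ribonucleotide reductase, fell by 0.15 (adjusted p = 0.0369), a call lost without FLAG-CTCFL replicate 1 (adjusted p = 0.0885) or 3 (0.156) and without control vector replicate 2 (0.110) or 3 (0.150). The RNA-binding gene Zmat3 (-0.02), the phosphatase gene Ppm1d (-0.08), the death receptor gene Fas (0.02) and the cyclin gene Ccnk (0.0030) did not pass limma's test. Fas, at mean log2 signals of 7.26 in FLAG-CTCFL arrays and 7.24 in control vector arrays, lay below the receptor level of 7.63. A change at so dim a signal may go unseen. Ppm1d passed with array weights alone (-0.11, adjusted p = 0.0287).

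**Figure D4:**
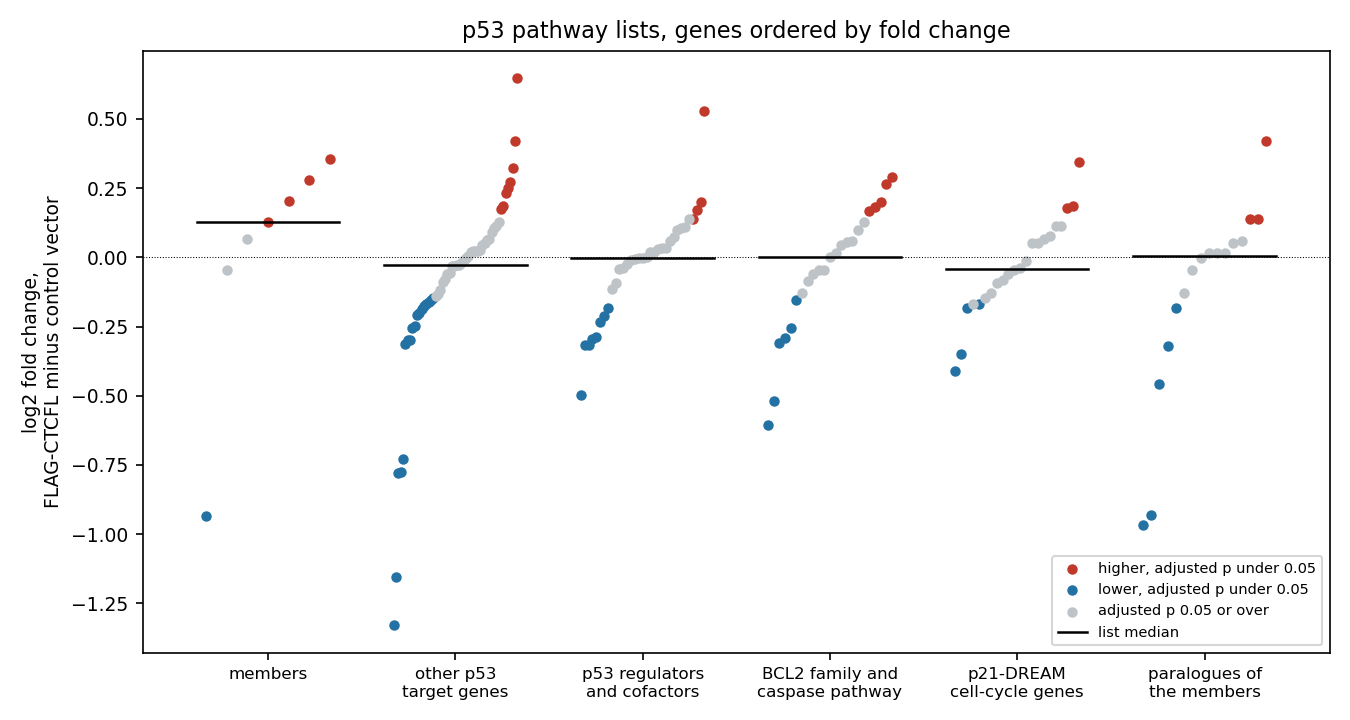
Log2 fold change (vertical axis, FLAG-CTCFL minus control vector) of every measured gene of the 6 lists, ordered within each list, red where higher, blue where lower and grey where adjusted p was 0.05 or over, with black lines for list medians. The members have 4 red points and 1 blue point at -0.93, and the other p53 target genes 8 red and 18 blue points around a median of -0.03.

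Regulators and cofactors of p53 were called at a rate of 36.4%, near the 30.9% of all genes, 4 of 33 higher and 8 lower, with a median of -0.0020. Hipk2, a kinase that phosphorylates p53, fell by 0.50 (adjusted p = 4.59e-06) and lies on chromosome 6. The checkpoint kinase genes Chek2 (-0.32) and Chek1 (-0.32, with adjusted p = 0.0715 where no variance was shared) and Usp7, a deubiquitinase of Mdm2 and p53 (-0.29), fell too. Mdm4, the relative of Mdm2 that binds p53 without ubiquitin ligase activity of its own, fell by 0.18 (adjusted p = 0.00848), with 10.23, 10.10 and 10.16 in FLAG-CTCFL arrays, against 10.34, 10.32 and 10.38 in control vector arrays. Mdm2 and Mdm4 thus moved in opposite directions, although the call of Mdm4 was lost where no variance was shared (adjusted p = 0.0570). Setd7, a lysine methyltransferase known to act on p53, rose by 0.53 (adjusted p = 1.39e-06). Ep300, a p53 acetyltransferase (0.20), Trp53bp1, the 53BP1 gene (0.17), and Trp63, the p63 gene (0.14), passed narrowly. The call of Ep300 was lost without FLAG-CTCFL replicate 1 or 3 or control vector replicate 1 or 3 (adjusted p = 0.0709 to 0.104), that of Trp53bp1 without FLAG-CTCFL replicate 1 or 3 or control vector replicate 1 (0.0504 to 0.0969) and that of Trp63 on leaving out any 1 array except FLAG-CTCFL replicate 1 (0.0624 to 0.104). Cdkn2a, the locus of the Mdm2 inhibitor ARF, differed by -0.01 (adjusted p = 0.893). After quantile normalization 12 genes of this list rose and 7 fell, and after subtraction of array medians 1 rose and 8 fell. The number of rises was 2 without FLAG-CTCFL replicate 1 or control vector replicate 3 and 1 without FLAG-CTCFL replicate 3 or control vector replicate 1.

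Genes of the BCL2 family and the caspase pathway, which carry out or restrain apoptosis, showed both directions. Of 23 measured 5 rose and 6 fell (47.8% called, beside 30.9% of all genes), and the median was -0.00019. Casp8, the initiator caspase of death receptors, fell by 0.60 (adjusted p = 4.84e-06), with 8.27, 8.17 and 8.32 in FLAG-CTCFL arrays, against 8.76, 8.99 and 8.82 in control vector arrays. The executioner caspase gene Casp6 fell by 0.52 and the BH3-only genes Bmf and Bid, the second on chromosome 6, by 0.31 and 0.29. Htra2, a mitochondrial protease released in apoptosis (0.29), Cycs, the cytochrome c gene (0.26), Bad, a BH3-only gene (0.20), and Bcl2l1, which codes for the protective BCL-XL (0.18), rose. The calls of Cycs and Bad were lost where no variance was shared (adjusted p = 0.163 and 0.161), and that of Bad also without FLAG-CTCFL replicate 3 (0.0726) or control vector replicate 2 (0.108). Htra2 and Cycs lie on chromosome 6. After subtraction of array medians 3 rose and 7 fell, and without control vector replicate 2, 3 rose and 6 fell.

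Cell-cycle genes that p53 is known to lower indirectly, through p21 and the DREAM repressor complex, went both ways. Of 22 measured 3 rose and 4 fell, and the median was -0.04. The share called, 31.8%, was close to the 30.9% of all genes. Foxm1, a transcription factor of mitotic genes on chromosome 6, fell by 0.41 (adjusted p = 2.11e-05), the cyclin B2 gene Ccnb2 by 0.35, E2f1 by 0.18 and Prc1, a spindle midzone gene, by 0.17. Cdc25a, a phosphatase that activates cyclin-dependent kinases, rose by 0.35 (adjusted p = 0.000177), and Aurkb and Birc5, of the chromosomal passenger complex, by 0.18 each. The call of E2f1 was lost after quantile normalization (adjusted p = 0.0864). That of Prc1 was lost without FLAG-CTCFL replicate 3 (0.0632) or control vector replicate 2 (0.102), that of Birc5 without FLAG-CTCFL replicate 3 (0.0839) or control vector replicate 3 (0.0972), and that of Aurkb on leaving out any 1 array except FLAG-CTCFL replicate 2 (0.0518 to 0.0931). After quantile normalization 7 rose and 2 fell, and after subtraction of array medians 1 rose and 4 fell. Without FLAG-CTCFL replicate 1 the falls numbered 8, and without FLAG-CTCFL replicate 3 or control vector replicate 3 the rises numbered 1.

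Paralogues of the p53 targets also went both ways. The lists overlap, with 10 genes on more than 1 of them, so their counts are not separate. Plk3 also counts among the other targets that rose, Trp63 among the regulators that rose and Mdm4 among the regulators that fell. Pmaip1 counts as a fall both among the other targets and in the BCL2 list. Of 16 measured 3 rose and 5 fell (50% called, beside 30.9% of all genes; median 0.0055). Phlda2, a placental growth regulator and imprinted relative of Phlda3, fell by 0.97 (adjusted p = 4.37e-09), with 11.57, 11.67 and 11.65 in FLAG-CTCFL arrays, against 12.61, 12.57 and 12.61 in control vector arrays. Cdkn1b, which codes for p27, a relative of p21 on chromosome 6, fell by 0.93 (adjusted p = 2.57e-07), and Cdkn1c, the imprinted p57 gene, by 0.32. Plk3 rose by 0.42, as Plk2 did by 0.36, while Plk5 fell by 0.46. Phlda1, another relative of Phlda3, rose by 0.14 (adjusted p = 0.0240), a call lost without FLAG-CTCFL replicate 3 (0.0806) or control vector replicate 2 (0.106) or 3 (0.0900). After subtraction of array medians 1 paralogue rose and 6 fell, and the number of rises was 1 without FLAG-CTCFL replicate 3 or control vector replicate 2 or 3.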

How the data were processed

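The authors deposited 1 value per probe set and array for 6 arrays. That these deposited values are log2 signals was read from their range of 5.73 to 14.56. The steps of background correction, summarisation and normalization are not given by the labels, and per the labels' protocols 200 ng of total RNA was labelled with the WT terminal kit.

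The table holds 34760 probe sets, of which 21640 are annotated with 1 gene symbol, 1321 with several and 11799 with none. Symbols were brought up to date with the GRCm38.p6 gene table by Entrez ID (21553 matched, 87 kept), and the brightest probe set of each gene was kept (19937 genes). The test was limma (version 3.58.1, R 4.3.3; group as the only term, two-sided, Benjamini-Hochberg over all genes). The procedure was also run on simulated data with independent noise and known changes. Its outcome is not given here, and that run does not bear on how the counts depend on scaling. Figures used matplotlib 3.10.9 in Python 3.11.15. The number of arrays limits the precision.

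The members and all gene lists were chosen with earlier results of these data known. Named genes were all members, up to 4 called genes per direction of each list, and well-known p53 targets and regulators fixed by name. The rule also asked for genes with patterns like Trp53 and Cdkn1a, which have no value here. Neighbours of the targets, the 20-base site matches and the relatives of Perp were added after values were seen. Replicate numbers did not pair the arrays (correlations of same-numbered deviations 0.13, -0.20 and -0.02). Alternatives were 16 planned settings and 1 added after seeing the data, without genes of chromosomes 6, 14 and X. No scan dates were used, so no batch was tested.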

Additional observations from a re-analysis of the deposited data

How the results depend on the processing

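Of the calls of the measured p53 targets other than Ccng1, 100 of 102 values under the 17 alternatives kept their direction and side of the threshold; the exceptions were Phlda3 and Trp53inp1, given with their values above. Counts of rises and falls among the members were 3 and 1 with the replicate block, where Ccng1 was lost (adjusted p = 0.0595); the replicate block ended no other call of a member. With 1 array left out the members had 3 to 4 rises and 1 fall, and 2 rises with no shared variance. Their median lay between 0.10 and 0.15 under all settings. The cause was not tested for any change of a call or count below, except that fewer samples or genes enter by construction. Rises numbered 15 after quantile normalization among other p53 targets, 12 among regulators and 7 among cell-cycle genes, where falls numbered 2. After subtraction of array medians rises numbered 1 among regulators, 3 in the BCL2 list, 1 among cell-cycle genes and 1 among paralogues. With all probe sets in the fit they numbered 1, 2, 1 and 1 in the same lists. With array weights regulators had 8 rises and cell-cycle genes 5 rises and 8 falls. With no shared variance regulators had 2 rises and 4 falls, the BCL2 list 2 rises and cell-cycle genes 1. With only genes above the median of mean signal, paralogues had 1 rise, and without chromosomes 6, 14 and X the BCL2 list had 3. With 1 array left out rises ranged from 7 to 10 and falls from 15 to 18 among other targets, from 1 to 6 and 6 to 8 among regulators, from 3 to 6 and 5 to 7 in the BCL2 list, from 1 to 4 and 3 to 8 among cell-cycle genes and from 1 to 3 and 5 to 6 among paralogues.

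Among the genes named, signs turned for 6, all with differences near 0 that passed in neither case. Trp53inp1 was 0.042 after quantile normalization. Cdkn2a was 0.017 after quantile normalization and 0.014 with array weights, and Zmat3 0.054 and 0.022. Fas was -0.0041 after subtraction of array medians and -0.0020 with array weights, and Ccnk -0.022 and -0.0040. Pmp22 was -0.0098 after subtraction of array medians. With 1 array left out Zmat3 ranged from -0.047 to 0.013, Fas from -0.025 to 0.057, Ccnk from -0.046 to 0.047 and Pmp22 from -0.034 to 0.053. Dim signal limits what can be seen of Fas, and a probe set shared with another gene leaves Cdkn1a without a value.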

Other observations

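Relatives of Perp were looked at after its fall was seen, so they are a description. Of the other genes of the PMP22 family of membrane proteins, Emp1, on chromosome 6, fell by 1.95 (limma adjusted p = 3.13e-09), Emp3 by 0.39 (adjusted p = 7.23e-06) and Emp2 by 0.23 (adjusted p = 0.00181), while Pmp22 differed by 0.02 (adjusted p = 0.887). Of 10 measured desmosome genes 4 were lower (18.4% of all genes were lower), namely Dsg2, a desmosomal cadherin (-0.26), Jup, the plakoglobin gene (-0.22), and the plakophilin genes Pkp2 (-0.18) and Pkp3 (-0.14). The calls of Jup, Pkp2 and Pkp3 were lost where no variance was shared between genes (adjusted p = 0.0513, 0.0520 and 0.0792). Those of Pkp2 and Pkp3 were lost after quantile normalization (0.0512 and 0.0530), and that of Pkp3 also without FLAG-CTCFL replicate 3 (0.125) or control vector replicate 1 (0.152) or 2 (0.0624).

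The probe set annotated to both Cdkn1a and the non-coding gene 4930567H12Rik cannot be assigned to either. It had log2 signals of 10.50, 10.56 and 10.62 in FLAG-CTCFL arrays, against 10.37, 10.43 and 10.38 in control vector arrays, so the groups did not overlap. The difference was 0.17 ± 0.05 (SE; limma adjusted p = 0.0422 in a fit over all probe sets).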
